A study of Mus musculus with 9 samples.

Results

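The solute carrier (Slc) genes expressed in macrophages of a mouse fibrosarcoma and in macrophages of the peritoneal cavity were examined by the substrate that their products carry. The array names 345 Slc genes on 450 probes. Members were chosen by measured values: a gene was taken as expressed where at least 1 of its probes was well above background, by the scanner software's own flag, on all 3 arrays of at least 1 group. Of the 345 names, 177 met this rule, 160 did not, and 8 carriers of glucose, cationic amino acids, cystine, lactate, iron and heme were left out by name (Slc2a1, Slc7a2, Slc7a11, Slc11a1, Slc11a2, Slc16a3, Slc40a1 and Slc48a1). The 177 genes stand among 16440 genes tested. The study compared F4/80high and F4/80low tumour-associated macrophages (TAMs), both from a fibrosarcoma and divided by the macrophage surface protein F4/80, with control macrophages from peritoneal exudate cells (PECs). All cells came from C57BL/6J mice, and the labels give neither the age of the animals nor an agent used to elicit the exudate. Each group has 3 samples, each on an array of its own, called biological replicates in the series. Whether they came from separate animals is not said, so p-values measure only how these samples spread, part of which may be technical. Tumour and peritoneum also differ as tissues, and the effect of the tumour cannot be told apart from that of the tissue.

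Solute carriers are membrane proteins that move amino acids, sugars, nucleotides, vitamins, metals and other ions across the plasma membrane and the membranes of organelles, mostly as facilitators or as carriers coupled to a sodium or proton gradient. Macrophages use them to feed on what they engulf: carriers in the lysosome export the amino acids, sugars, nucleosides and metals released by digestion, while carriers of the Golgi import the nucleotide sugars used for glycosylation. Mitochondrial carriers of the SLC25 family join the citric acid cycle to the cytosol.

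Levels are log2 signals of a gene's brightest probe relative to its array's 75th percentile, so that a negative level lies below that percentile, and they are compared only within a gene. Of the 177 genes, 130 were above background on all 9 arrays. The rule was met on all 3 arrays by 153 genes in F4/80high TAMs, by 148 in F4/80low TAMs and by 159 in PECs. A total of 24 genes met it in 1 group only, 6 in F4/80high TAMs, 8 in F4/80low TAMs and 10 in PECs, and their highest group mean ran between -1.86 and 2.83 (median -0.85). Just outside the rule, 12 names were above background on 2 of 3 arrays of their best group, with a highest group mean between -2.61 and -1.23 (median -1.76).

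The probes are 60 bases long, and their sequences bear on what the levels of some members mean. They are shown 5′ to 3′ in the sense direction with mm9 positions. The first set holds probes that read through at least 1 reading frame without a stop codon, for members with a second probe that read like the brightest (Slc37a2) or otherwise (Slc4a7), with a probe over a junction between exons (Slc15a3) or with opposite calls in the TAM subsets (Slc25a44).
Slc37a2 second probe, chr9:37041206-37041265: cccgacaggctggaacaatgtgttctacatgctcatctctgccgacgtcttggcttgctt
Slc4a7 second probe, chr14:15572341-15572400: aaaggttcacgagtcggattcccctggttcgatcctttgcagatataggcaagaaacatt
Slc15a3, chr19:10931798-10932148: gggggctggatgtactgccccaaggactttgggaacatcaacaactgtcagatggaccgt
Slc25a44, chr3:88224424-88224483: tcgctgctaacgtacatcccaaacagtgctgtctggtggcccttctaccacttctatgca
The 60 bases of Slc15a3 lie over 351 bases of genome, so this probe spans a splice junction. The second set holds 30 bases of probes that carry a repeat. Capitals mark a run of CA dinucleotides in Slc8a3 and Slc17a5, and in Slc10a1 the bases that recur in stretches of 20 in probes of other genes.
Slc8a3, chr12:82299156-82299215: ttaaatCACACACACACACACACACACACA
Slc17a5, chr9:78385399-78385458: aaatggACACACACACACACACACACACtg
Slc10a1, chr12:82056539-82056598: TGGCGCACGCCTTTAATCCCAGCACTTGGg
Of the brightest probes of the 177 members, 9 shared a stretch of 20 bases with a probe of another name among the 55681 probes searched. Slc8a3 shared one with 76 and Slc17a5 with 75 other names, and the remaining 7 members with 1 to 9 (Slc35e1, Slc1a4, Slc24a6, Slc10a1, Slc35e2, Slc25a26 and Slc28a2). The Slc10a1 stretch is that of B1, an abundant mouse repeat. Slc10a1, the bile acid carrier of hepatocytes, read 10.71, 10.72 and 10.74 in the F4/80high TAMs, 10.86, 10.48 and 10.89 in the F4/80low TAMs and 10.20, 10.34 and 10.01 in PECs, so a level this high in all 9 arrays cannot be ascribed to Slc10a1.

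More members fell than rose in both TAM subsets. Among the 130 members above background on all 9 arrays, 55 fell and 19 rose in F4/80high TAMs against PECs, with 27.5% of all 12753 such genes falling, 23.0% rising and 50.6% called either way. The counts in F4/80low TAMs were 56 falls and 22 rises against PECs, against 30.3% and 18.6% of all such genes and 48.9% called either way. Between the subsets, 31 were lower and 27 higher in F4/80high than in F4/80low TAMs, against 10.9% and 18.9% of all such genes and 29.9% called either way. The median log2 fold change of the 130 was -0.32, -0.34 and -0.16 in that order of comparisons, beside -0.01, -0.14 and 0.11 over all such genes. Over all 177 members 31 rose and 72 fell in F4/80high TAMs, beside 25.1% and 28.0% of all 16440 genes. Of these members 42 rose and 73 fell in F4/80low TAMs, beside 22.8% and 29.2%. Between the subsets 35 were higher and 44 lower, beside 18.6% and 14.0%, but members that met the rule through 1 group alone were bound to differ. The comparisons with PECs share the PEC arrays.

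**Figure D1:**
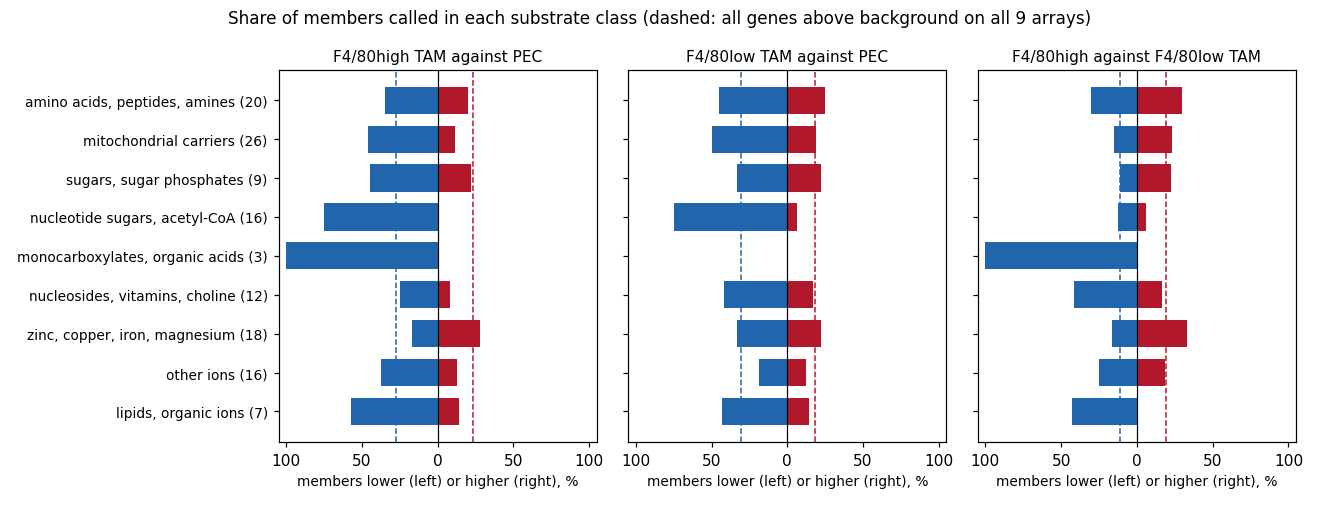
Share of members above background on all 9 arrays that were lower (blue, left) or higher (red, right) in each comparison, in percent of the class, by substrate class with the number of members in brackets. Dashed lines give the shares among all 12753 genes above background on all 9 arrays. The nucleotide sugar class lies furthest past the line for lower in both comparisons with PECs among classes of more than 3 members.

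The 6 TAM arrays lay on slide 1 together with PEC replicate 1, while PEC replicates 2 and 3 lay on slide 2. With slide as a block, which rests each comparison with PECs on PEC replicate 1, 12 of the 130 members rose and 35 fell in F4/80high TAMs and 14 rose and 33 fell in F4/80low TAMs. Of all genes tested, 53.1% and 51.9% were called without the block and 34.2% and 29.8% with it. All 103 members called in F4/80high TAMs and all 115 called in F4/80low TAMs kept their sign there, at a median of 0.98 and 0.96 times their log2 fold change. Correction with normexp and the deposited value table both gave smaller log2 fold changes for the members called, at a median of 0.74 and 0.74 times in F4/80high TAMs, 0.62 and 0.70 times in F4/80low TAMs and 0.68 and 0.80 times between the subsets. Centring each array on its median moved the median of all genes by 0.15 in F4/80high TAMs against PECs, 0.27 in F4/80low TAMs and -0.12 between the subsets. With it, 22 of the 130 rose and 49 fell in F4/80high TAMs, and 30 rose and 43 fell in F4/80low TAMs. Of all genes tested, 55.1% and 53.1% were called with it. With quantile normalization 20 were higher and 39 lower in F4/80high than in F4/80low TAMs, where 32.6% of all genes tested were called.

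The F4/80low arrays also carried transcripts of other leukocytes. Of 11 neutrophil markers on the array, 6 were above background throughout in F4/80high TAMs, 11 in F4/80low TAMs and 5 in PECs. Their summed signal, on the log2 scale, was 8.36, 7.81 and 8.05 in the F4/80high TAMs, 13.0, 11.2 and 10.9 in the F4/80low TAMs and 7.28, 7.24 and 6.90 in PECs. The neutrophil markers Cxcr2 and Mmp8 were on no F4/80high array above background, and Cxcr2, Retnlg and Ngp on no PEC array. Of 9 T cell markers, 3, 8 and 4 were above background throughout in F4/80high TAMs, F4/80low TAMs and PECs, of 6 NK cell markers 1, 4 and 1, of 7 dendritic cell markers 2, 2 and 0, and of 5 mast cell and eosinophil markers 2, 2 and 0. The summed T cell marker signal was 3.7 to 4.12 in F4/80high, 4.79 to 5.78 in F4/80low and 2.89 to 3.61 in PEC arrays. The summed NK cell marker signal was 0.668 to 0.769 in F4/80high, 3.44 to 4.53 in F4/80low and 0.103 to 0.57 in PEC arrays. The summed dendritic cell marker signal was 5.12 to 5.45 in F4/80high, 5.06 to 6.32 in F4/80low and -0.961 to -0.172 in PEC arrays. The summed mast cell and eosinophil marker signal was -0.0667 to 0.392 in F4/80high, 1.2 to 2.37 in F4/80low and -1.99 to -0.915 in PEC arrays. Of 5 B cell markers 0 were above background throughout in any group. Of 4 mesothelium markers 0, 1 and 0 were above background throughout in F4/80high TAMs, F4/80low TAMs and PECs. Their summed signal was -1.94 to -1.18 in F4/80high, 0.800 to 1.25 in F4/80low and -2.72 to -2.26 in PEC arrays. The 1 marker was Msln (mean 0.894 in F4/80low TAMs), and Upk3b, Krt19 and Wt1 were above background on no array of any group. The macrophage list was above background throughout in 7, 6 and 7 of 7, with Mertk on no F4/80low array. The part of these cells in the results for F4/80low TAMs was not tested, and in a bulk sample fewer cells of a type and less RNA per cell cannot be told apart.

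Carriers of amino acids, peptides and amines changed in both directions. Of 20 members above background on all arrays, 4 rose and 7 fell in F4/80high TAMs against PECs (median log2 fold change -0.22). Of these 5 rose and 9 fell in F4/80low TAMs (median -0.15), and 6 were higher and 6 lower in F4/80high than in F4/80low TAMs (median -0.02). In F4/80high TAMs 20% of the class rose and 35% fell, beside 23.0% and 27.5% of all genes above background on all arrays. The shares in F4/80low TAMs were 25% and 45%, beside 18.6% and 30.3%. Between the subsets 30% were higher and 30% lower, beside 18.9% and 10.9%. With slide as a block, 4 rises and 6 falls passed in F4/80high TAMs, with 4 and 7 in F4/80low. In that setting 34.2% and 29.8% of all genes tested were called either way. Slc36a4, a carrier of proline and tryptophan, read -1.57, -1.51 and -1.85 in the F4/80high TAMs, -0.75, -0.41 and -0.91 in the F4/80low TAMs and 1.88, 2.05 and 1.84 in PECs (mm9, chr9:15542793-15542852). Every TAM array lay below every PEC array. The fall was 11.8-fold in F4/80high TAMs (log2 fold change -3.57 with SE 0.19, adjusted p = 1.16e-06) and 6.13-fold in F4/80low TAMs (log2 fold change -2.62 with SE 0.19, adjusted p = 8.51e-06), and a second probe gave -2.99 (SE 0.20, adjusted p = 3.96e-06) and -2.39 (SE 0.20, adjusted p = 2.04e-05). With normexp correction the values were -2.00 and -1.67. Slc6a8, the creatine transporter, read 3.47, 3.43 and 3.70 in the F4/80high TAMs, 4.99, 5.45 and 5.79 in the F4/80low TAMs and 6.70, 7.41 and 6.97 in PECs (mm9, chrX:70927775-70927834). The groups stood apart on all 3 comparisons: it fell 11.3-fold in F4/80high TAMs (log2 fold change -3.49 with SE 0.25, adjusted p = 6.61e-06), 3.06-fold in F4/80low TAMs (log2 fold change -1.62 with SE 0.25, adjusted p = 0.000763), and was lower in F4/80high than in F4/80low TAMs (log2 fold change -1.88 with SE 0.25, adjusted p = 0.000628). Slc43a2, a sodium-independent carrier of branched-chain and aromatic amino acids, averaged 0.99 ± 0.57 in F4/80high TAMs, 2.34 ± 0.21 in F4/80low TAMs and 3.87 ± 0.41 in PECs (SD, n = 3 each) and fell by 2.88 in F4/80high TAMs (adjusted p = 6.64e-05) and by 1.53 in F4/80low TAMs (adjusted p = 0.00312). The taurine transporter Slc6a6 fell by 1.06 and 1.88 (adjusted p = 0.00463 and 0.000217). Within slide 1 its value in F4/80high TAMs was -1.11, adjusted p = 0.0588.

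**Figure D2:**
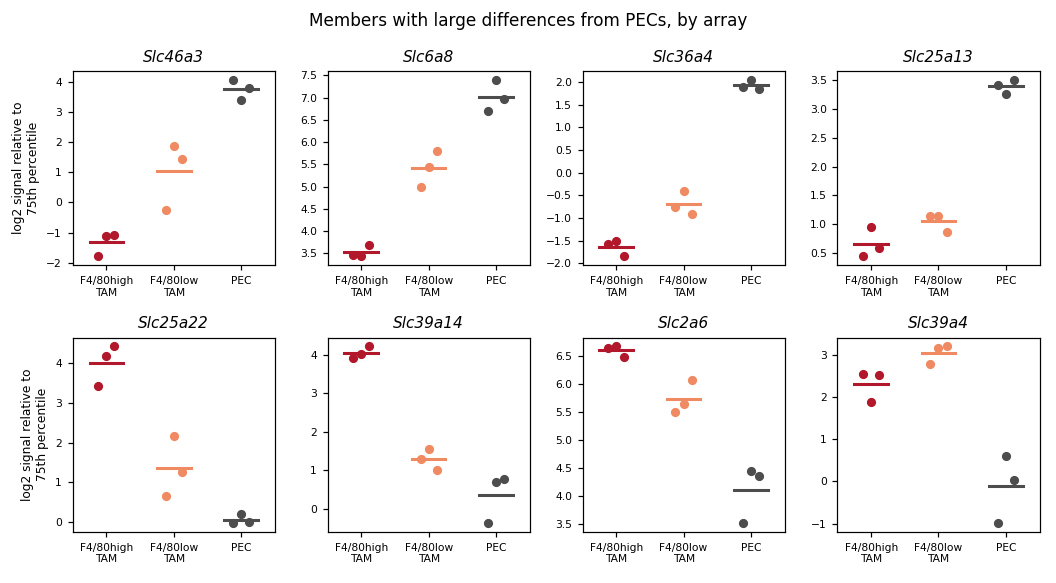
Level of 8 members on each array, in log2 units relative to the array's 75th percentile, for F4/80high TAMs, F4/80low TAMs and PECs (3 arrays each). Points are arrays and lines group means. In the upper row every TAM array lies below every PEC array, and in the lower row every TAM array lies above every PEC array.

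Carriers of neutral amino acids in the SLC1 and SLC38 families did not move as one. Slc1a4, which exchanges alanine, serine and cysteine, read 4.90, 4.77 and 4.62 in the F4/80high TAMs, 2.94, 3.72 and 3.29 in the F4/80low TAMs and 2.70, 1.97 and 1.83 in PECs. All F4/80high arrays lay above all F4/80low arrays and these above all PEC arrays. The difference from PECs was 2.60 (adjusted p = 6.04e-05, SE 0.27) in F4/80high TAMs and 1.15 (adjusted p = 0.00734, SE 0.27) in F4/80low TAMs, where slide as a block ended the call (0.61, adjusted p = 0.168). Its probe was among those that share a stretch with other names. Slc1a5, the glutamine exchanger of that family, read 2.55, 2.44 and 2.75 in the F4/80high TAMs, 4.25, 4.53 and 4.61 in the F4/80low TAMs and 2.03, 2.72 and 2.52 in PECs. It was higher in every F4/80low array than in any other, by 2.04 (adjusted p = 7.76e-05, SE 0.21) against PECs, whereas F4/80high TAMs gave 0.15 (adjusted p = 0.566, SE 0.21). Between subsets the difference was -1.88 (adjusted p = 0.000255, SE 0.21), and a second probe gave 2.28 (SE 0.27, adjusted p = 0.00017) and -1.97 (SE 0.27, adjusted p = 0.000778). Slc38a2, a glutamine and alanine importer induced by amino acid shortage in mammalian cells, had the same order, at 2.80, 2.87 and 3.08 in the F4/80high TAMs, 4.53, 4.91 and 6.19 in the F4/80low TAMs and 2.17, 3.13 and 2.65 in PECs. Against PECs it gave 0.27 (adjusted p = 0.597, SE 0.41) in F4/80high TAMs and 2.56 (adjusted p = 0.000829, SE 0.41) in F4/80low TAMs. The subsets differed by -2.29 (adjusted p = 0.00251, SE 0.41). Slc38a1, a close relative, stood the other way round, at 6.01 ± 0.56 in F4/80high TAMs, 4.65 ± 0.13 in F4/80low TAMs and 4.57 ± 0.23 in PECs, with 1.44 (adjusted p = 0.00183, SE 0.27) in F4/80high TAMs and 0.08 (adjusted p = 0.828, SE 0.27) in F4/80low TAMs. One of its other probes gave 2.19 (SE 0.28, adjusted p = 0.0002) and another 0.44 (SE 0.41, adjusted p = 0.398) in F4/80high TAMs. Slc38a9, a lysosomal relative that senses arginine, was lower in both subsets, at -1.57 (adjusted p = 0.000849, SE 0.26) and -1.79 (adjusted p = 0.00051, SE 0.26) (-1.10 in F4/80low TAMs with normexp correction), and its second probe gave -0.80 (SE 0.34, adjusted p = 0.0783) and -1.09 (SE 0.34, adjusted p = 0.0255).

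Slc3a2, the heavy chain shared by the heterodimeric amino acid exchangers, averaged 7.08 ± 0.26 in F4/80high TAMs, 6.82 ± 0.40 in F4/80low TAMs and 7.01 ± 0.55 in PECs and passed in no comparison (adjusted p = 0.849, 0.63 and 0.553 in the order used above). Slc7a8, the light chain of an exchanger of neutral amino acids, read 4.70, 4.90 and 5.13 in the F4/80high TAMs, 0.85, 2.44 and 2.25 in the F4/80low TAMs and 3.39, 3.29 and 3.53 in PECs. The groups did not overlap: it was higher in F4/80high TAMs (log2 fold change 1.51 with SE 0.37, adjusted p = 0.00751) and lower in F4/80low TAMs (log2 fold change -1.55 with SE 0.37, adjusted p = 0.00694) than in PECs, and differed 8.34-fold between subsets (log2 fold change 3.06 with SE 0.37, adjusted p = 0.000362). Neither difference from PECs passed with slide as a block (1.52, adjusted p = 0.0666 and -1.54, adjusted p = 0.0695). Slc7a7, the light chain that exports cationic amino acids, rose by 1.07 in F4/80high TAMs (adjusted p = 0.00829), a call that ended with slide as a block (0.64, adjusted p = 0.175). Slc7a5, the light chain for large neutral amino acids, read -0.06, 0.09 and 0.09 in the F4/80high TAMs, 0.75, 0.43 and 0.93 in the F4/80low TAMs and -1.97, 0.18 and -1.07 in PECs. Its difference from PECs was 0.99 (adjusted p = 0.0873, SE 0.44) in F4/80high TAMs, or 1.56, adjusted p = 0.00292 without PEC replicate 2, and 1.66 (adjusted p = 0.0125, SE 0.44) in F4/80low TAMs. A second probe gave 1.66 (SE 0.43, adjusted p = 0.00945) and 2.27 (SE 0.43, adjusted p = 0.00215), and slide as a block 2.01 and 2.67.

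Among lysosomal carriers, Slc15a3, which exports peptides and histidine, was lower in F4/80low TAMs. It read 5.75, 5.70 and 5.49 in the F4/80high TAMs, 4.34, 4.54 and 4.11 in the F4/80low TAMs and 5.81, 5.91 and 6.09 in PECs, and every F4/80low array lay below every other array. Against PECs the value was -0.29 (adjusted p = 0.185, SE 0.18) in F4/80high TAMs, or -0.49, adjusted p = 0.0216 with normexp correction. It was -1.61 (adjusted p = 9.74e-05, SE 0.18) in F4/80low TAMs. Slc15a4, a related lysosomal carrier linked to endosomal Toll-like receptor signalling, gave -0.62 (adjusted p = 0.0216, SE 0.19) in F4/80high TAMs and -1.06 (adjusted p = 0.00158, SE 0.19) in F4/80low TAMs. The call in F4/80high TAMs ended without any 1 of PEC replicate 1 and F4/80high replicates 1 and 2 (adjusted p 0.0505 to 0.0811). Slc36a1, a proton-coupled exporter of small amino acids from lysosomes, passed in no comparison, with log2 fold changes of -0.15, 0.19 and -0.35.

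Sugar carriers changed in both directions. Of 9 members above background on all arrays, 2 rose and 4 fell in F4/80high TAMs against PECs (median log2 fold change -0.24). Among them 2 rose and 3 fell in F4/80low TAMs (median -0.04), and 2 were higher and 1 lower in F4/80high than in F4/80low TAMs (median 0.27). In F4/80high TAMs 22.2% of the class rose and 44.4% fell, beside 23.0% and 27.5% of all genes above background on all arrays. The shares in F4/80low TAMs were 22.2% and 33.3%, beside 18.6% and 30.3%. Between the subsets 22.2% were higher and 11.1% lower, beside 18.9% and 10.9%. Slc2a6, a hexose transporter of lysosomes, read 6.63, 6.67 and 6.48 in the F4/80high TAMs, 5.49, 5.64 and 6.08 in the F4/80low TAMs and 3.52, 4.46 and 4.36 in PECs. Every TAM array lay above every PEC array, and it rose 5.58-fold in F4/80high TAMs (log2 fold change 2.48 with SE 0.27, adjusted p = 6.66e-05) and 3.08-fold in F4/80low TAMs (log2 fold change 1.62 with SE 0.27, adjusted p = 0.00104). Slide as a block gave 3.07 and 2.21, and a second probe gave 2.30 (SE 0.33, adjusted p = 0.000405) and 1.05 (SE 0.33, adjusted p = 0.0263). Slc2a8, another intracellular hexose transporter, fell by 2.18 in F4/80high TAMs (adjusted p = 4.84e-05) and by 1.80 in F4/80low TAMs (adjusted p = 0.000199). Slc45a4, of a family that carries sugars with protons, fell by 1.90 and 2.18 (adjusted p = 1.87e-05 and 1.18e-05). Normexp correction gave -1.25 and -1.39. Slc37a2, a sugar phosphate exchanger of the endoplasmic reticulum, read 2.89, 2.45 and 2.32 in the F4/80high TAMs, 5.27, 5.40 and 5.23 in the F4/80low TAMs and 5.48, 5.09 and 5.45 in PECs. The F4/80high arrays lay below all others, while F4/80low and PEC arrays overlapped. It fell 6.91-fold in F4/80high TAMs against PECs (log2 fold change -2.79 with SE 0.20, adjusted p = 6.04e-06) and 6.71-fold against F4/80low TAMs (log2 fold change -2.75 with SE 0.20, adjusted p = 2.56e-05), with -0.04 (adjusted p = 0.873, SE 0.20) in F4/80low TAMs. The second probe, whose sequence is given above, gave -2.55 (SE 0.22, adjusted p = 1.80e-05), -2.95 (SE 0.22, adjusted p = 3.17e-05) and 0.40 (SE 0.22, adjusted p = 0.161).

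**Figure D3:**
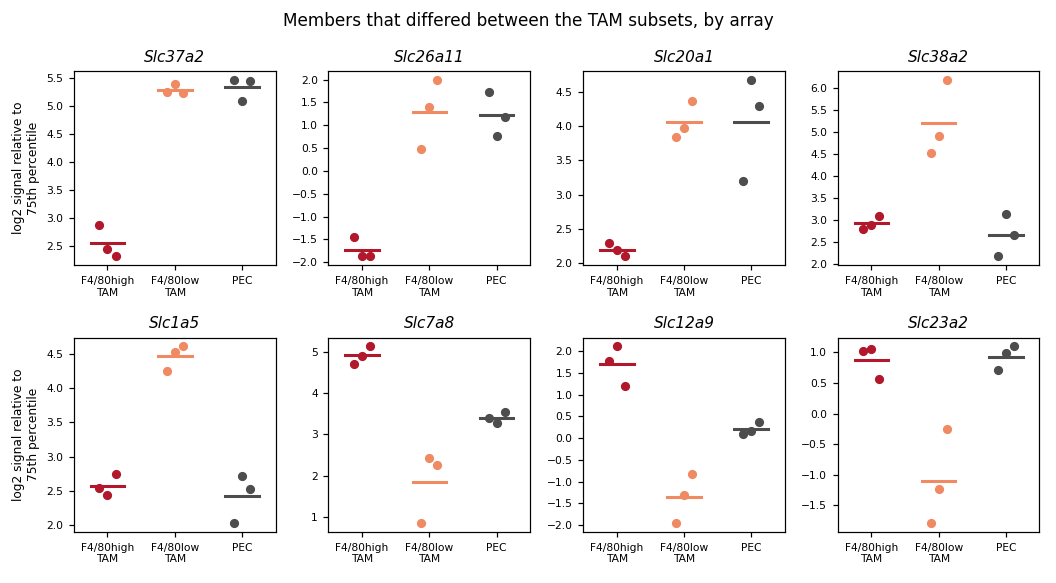
Level of 8 members on each array, in log2 units relative to the array's 75th percentile, for F4/80high TAMs, F4/80low TAMs and PECs (3 arrays each). Points are arrays and lines group means. The F4/80high and F4/80low arrays do not overlap in any of the 8 panels.

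Slc2a3, a high-affinity glucose transporter of neurons and leukocytes, was above background on 1 of 3 F4/80high arrays, on all F4/80low arrays and on 1 of 3 PEC arrays. Since Slc2a3 met the rule through F4/80low TAMs alone, a difference was part of how it was chosen. It read -2.87, -4.35 and -0.24 in the F4/80high TAMs, 3.53, 2.71 and 2.25 in the F4/80low TAMs and 0.16, -3.85 and -4.75 in PECs, a wide spread within F4/80high TAMs and PECs. The difference was 5.64 (adjusted p = 0.00612, SE 1.30) in F4/80low TAMs over PECs and -5.31 (adjusted p = 0.0127, SE 1.30) between subsets. Without PEC replicate 1 or PEC replicate 3 the first was 7.13 and 4.67, and with slide as a block it did not pass (2.67, adjusted p = 0.157). Without F4/80high replicate 2 or 3 the second was -4.38 and -6.43. Its level was highest in F4/80low replicate 1, the array with the highest summed neutrophil signal, and a link was not tested. Slc5a3, the sodium-coupled inositol importer, was above background on all TAM arrays and 1 of 3 PEC arrays. It read -0.93, -1.86 and -0.89 in the F4/80high TAMs, 0.21, 0.45 and 0.79 in the F4/80low TAMs and -3.23, -2.21 and -2.97 in PECs. The rises were 1.58 (adjusted p = 0.00388, SE 0.34) and 3.29 (adjusted p = 7.33e-05, SE 0.34). Slc5a3 met the rule through the TAM subsets and not PECs, so a difference from PECs was part of how it was chosen. A second probe gave 1.38 (SE 0.43, adjusted p = 0.0225) and 3.43 (SE 0.43, adjusted p = 0.000212), and normexp correction 0.51 and 1.23. The probes of Slc45a3, a further member of the proton-coupled sugar family, went different ways: the brighter gave 1.37 (adjusted p = 0.0021, SE 0.26) and 0.70 (adjusted p = 0.05, SE 0.26), and the dimmer -0.49 (SE 0.42, adjusted p = 0.357) and 2.47 (SE 0.42, adjusted p = 0.0013).

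In the class of carriers that supply the Golgi and endoplasmic reticulum with nucleotide sugars and acetyl-CoA, most members were lower in both TAM subsets. Fewer falls passed with slide as a block. The class also holds Slc35e4, Slc35f5 and Slc35b1, whose substrates are unknown, less certain or other than these, as given below. Of 16 members above background on all arrays, 0 rose and 12 fell in F4/80high TAMs against PECs (median log2 fold change -0.88). Of the same members 1 rose and 12 fell in F4/80low TAMs (median -0.72), and 1 was higher and 2 lower in F4/80high than in F4/80low TAMs (median -0.11). The falls were 75% of the class in each TAM subset, beside 27.5% and 30.3% of all genes above background on all arrays. The rises were 0% and 6.25%, beside 23.0% and 18.6%. Between the subsets 6.25% were higher and 12.5% lower, beside 18.9% and 10.9%. In each comparison with PECs 15 of 16 log2 fold changes were negative. Leaving out any 1 array left 11 or 12 falls in F4/80high TAMs and 8 to 12 in F4/80low TAMs. A slide block left 8 and 5 falls, and 15 and 14 values were negative. In that setting 34.2% and 29.8% of all genes tested were called either way. Median centring left 11 and 7 falls, with 55.1% and 53.1% of all genes tested called either way. Slc35b4, a carrier of UDP-xylose and UDP-N-acetylglucosamine, read -0.23, 0.21 and 0.08 in the F4/80high TAMs, -0.51, -0.15 and 0.08 in the F4/80low TAMs and 1.46, 1.28 and 1.66 in PECs. The TAM arrays all lay below the PEC arrays and overlapped between subsets. The values were -1.45 (adjusted p = 0.000395, SE 0.21) and -1.67 (adjusted p = 0.000223, SE 0.21). Slc35c1, which carries the GDP-fucose used for selectin ligands, read 3.00, 3.29 and 3.15 in the F4/80high TAMs, 3.61, 3.40 and 3.74 in the F4/80low TAMs and 4.33, 4.51 and 4.46 in PECs. It fell by 1.28 in F4/80high TAMs (adjusted p = 0.000192) and by 0.85 in F4/80low TAMs (adjusted p = 0.00256). Within slide 1 the second was -0.74, adjusted p = 0.0737. Slc35a1, the CMP-sialic acid carrier, fell by 0.89 and 1.15 (adjusted p = 0.000911 and 0.000261). Slc35f5, a member of this family with a less certain substrate, fell by 1.19 and 1.44 (adjusted p = 0.0128 and 0.00537), calls that ended with slide as a block (-1.04, adjusted p = 0.13 and -1.30, adjusted p = 0.0758). Slc35e4, whose substrate is not known, read 2.99, 3.18 and 3.34 in the F4/80high TAMs, 4.25, 4.67 and 5.48 in the F4/80low TAMs and 4.20, 5.38 and 4.92 in PECs, with -1.66 (adjusted p = 0.00413, SE 0.36) and -0.03 (adjusted p = 0.95, SE 0.36) against PECs and -1.63 (adjusted p = 0.00783, SE 0.36) between subsets. With slide as a block its fall in F4/80high TAMs did not pass (-1.03, adjusted p = 0.108). Slc35a3, a UDP-N-acetylglucosamine carrier, gave -0.37 (adjusted p = 0.153, SE 0.21) in F4/80high TAMs and -0.76 (adjusted p = 0.013, SE 0.21) in F4/80low TAMs. The second did not pass with slide as a block (-0.66, adjusted p = 0.129), median centring (-0.49, adjusted p = 0.0776) or normexp correction (-0.29, adjusted p = 0.0746). Slc35b1, which brings ATP into the endoplasmic reticulum, gave 0.11 (adjusted p = 0.714, SE 0.22) and -0.66 (adjusted p = 0.0335, SE 0.22), and 0.77 (adjusted p = 0.0273, SE 0.22) between subsets. Slide as a block turned the value in F4/80low TAMs into -0.20, adjusted p = 0.547, and the call between subsets was lost without any 1 of F4/80high replicates 1, 2 and 3 and F4/80low replicates 1 and 2 (adjusted p 0.0548 to 0.0851).

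**Figure D4:**
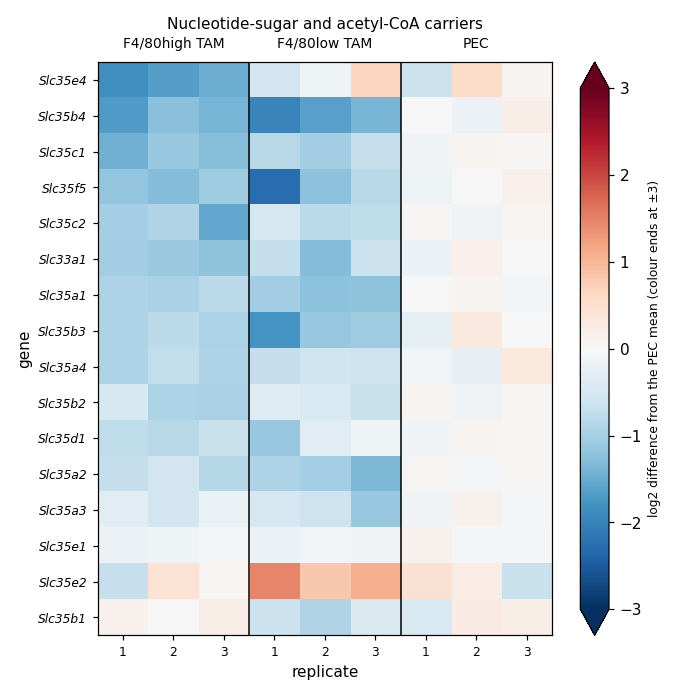
Difference of each array from the mean of the 3 PEC arrays, in log2 units, for the 16 members of the nucleotide sugar and acetyl-CoA class above background on all 9 arrays (rows), with F4/80high TAM, F4/80low TAM and PEC replicates in columns. Some members have an unknown or other substrate. Blue is lower than PECs. 15 of 16 rows have a negative mean in F4/80high TAMs and 15 of 16 in F4/80low TAMs.

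Mitochondrial carriers fell more often than they rose, around 1 large rise, but in F4/80high TAMs few falls passed with slide as a block. Of 26 members above background on all arrays, 3 rose and 12 fell in F4/80high TAMs against PECs (median log2 fold change -0.45). Of these 5 rose and 13 fell in F4/80low TAMs (median -0.55), and 6 were higher and 4 lower in F4/80high than in F4/80low TAMs (median -0.23). In F4/80high TAMs 11.5% of the class rose and 46.2% fell, beside 23.0% and 27.5% of all genes above background on all arrays. The shares in F4/80low TAMs were 19.2% and 50%, beside 18.6% and 30.3%. Between the subsets 23.1% were higher and 15.4% lower, beside 18.9% and 10.9%. With slide as a block, 2 rises and 4 falls passed in F4/80high TAMs, with 2 and 8 in F4/80low. In that setting 34.2% and 29.8% of all genes tested were called either way. Slc25a22, which imports glutamate with protons, read 3.42, 4.20 and 4.43 in the F4/80high TAMs, 0.66, 2.18 and 1.25 in the F4/80low TAMs and -0.03, 0.20 and 0.01 in PECs (mm9, chr7:148615651-148615710). The 3 groups did not overlap. It rose 15.5-fold in F4/80high TAMs (log2 fold change 3.96 with SE 0.38, adjusted p = 3.53e-05), by 1.31 (adjusted p = 0.0183, SE 0.38) in F4/80low TAMs, and was 6.28-fold higher in F4/80high than in F4/80low TAMs (log2 fold change 2.65 with SE 0.38, adjusted p = 0.000914). The call in F4/80low TAMs ended with slide as a block (1.39, adjusted p = 0.103) and without PEC replicate 3 (adjusted p 0.0535). Slc25a13, the aspartate-glutamate exchanger of the malate-aspartate shuttle, read 0.43, 0.95 and 0.58 in the F4/80high TAMs, 1.13, 1.14 and 0.86 in the F4/80low TAMs and 3.43, 3.26 and 3.52 in PECs (mm9, chr6:5991482-5991541). It fell 6.7-fold in F4/80high TAMs (log2 fold change -2.74 with SE 0.19, adjusted p = 4.97e-06) and 5.12-fold in F4/80low TAMs (log2 fold change -2.36 with SE 0.19, adjusted p = 1.59e-05), and the subsets overlapped. Slc25a11, the oxoglutarate-malate exchanger of the same shuttle, fell by 1.42 and 1.01 (adjusted p = 0.000445 and 0.00362; with slide as a block -0.87, adjusted p = 0.0598 in F4/80low TAMs). Slc25a1, which exports citrate for lipid synthesis, fell by 1.00 in F4/80high TAMs (adjusted p = 0.00671) and by 1.33 in F4/80low TAMs (adjusted p = 0.00167). Slc25a45 averaged -1.13 ± 0.23 in F4/80high TAMs, 0.31 ± 0.24 in F4/80low TAMs and 1.63 ± 0.28 in PECs and fell by 2.76 and 1.31 (adjusted p = 9.36e-06 and 0.000926), or by 1.68 in F4/80high TAMs with normexp correction. Slc25a14, an uncoupling protein homologue, fell by 0.79 and 1.83 (adjusted p = 0.0115 and 0.00014). Slide as a block gave -0.51, adjusted p = 0.187 in F4/80high TAMs.

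Slc25a44, the importer of branched-chain amino acids, was called in opposite directions. It read 2.19, 1.86 and 1.81 in the F4/80high TAMs, -0.11, 0.16 and 0.17 in the F4/80low TAMs and 1.22, 0.76 and 0.33 in PECs. The F4/80high arrays lay above all others, with 1.18 (adjusted p = 0.0027, SE 0.24) against PECs and 1.88 (adjusted p = 0.000474, SE 0.24) against F4/80low TAMs. Slide as a block ended the first call (0.73, adjusted p = 0.0693). Its value in F4/80low TAMs was -0.70 (adjusted p = 0.0352, SE 0.24), a call lost without any 1 of PEC replicates 1 and 2, F4/80high replicate 2 and F4/80low replicates 1, 2 and 3 (adjusted p 0.0513 to 0.0978), and a second probe gave -0.14 (SE 0.27, adjusted p = 0.691). Slc25a5, the ADP/ATP exchanger of growing cells, gave -0.16 (adjusted p = 0.504, SE 0.19) in F4/80high TAMs and 0.55 (adjusted p = 0.037, SE 0.19) in F4/80low TAMs, the second lost without any 1 of PEC replicates 1, 2 and 3, F4/80high replicate 3 and F4/80low replicates 1, 2 and 3 (adjusted p 0.0501 to 0.101). Slc25a20, the carnitine-acylcarnitine carrier, passed in no comparison (-0.30, -0.03 and -0.28). Slc25a10, the dicarboxylate carrier, was above background on 1 of 3 F4/80low arrays and gave -0.99 (adjusted p = 0.00767, SE 0.24) there against PECs, a call that ended with slide as a block (-0.97, adjusted p = 0.0711) and with normexp correction (-0.10, adjusted p = 0.469). Slc25a40, a mitochondrial glutathione importer, was on no F4/80low array above background and at least 1.66-fold lower than in PECs (adjusted p = 0.00654; -0.11, adjusted p = 0.334 with normexp correction). The mitoferrin Slc25a37, which imports iron, gave 0.26 (adjusted p = 0.441, SE 0.27) in F4/80high TAMs and 0.77 (adjusted p = 0.0378, SE 0.27) in F4/80low TAMs, with the second lost without any 1 of PEC replicates 1, 2 and 3, F4/80high replicate 2 and F4/80low replicates 1 and 2 (adjusted p 0.0556 to 0.114).

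**Figure D5:**
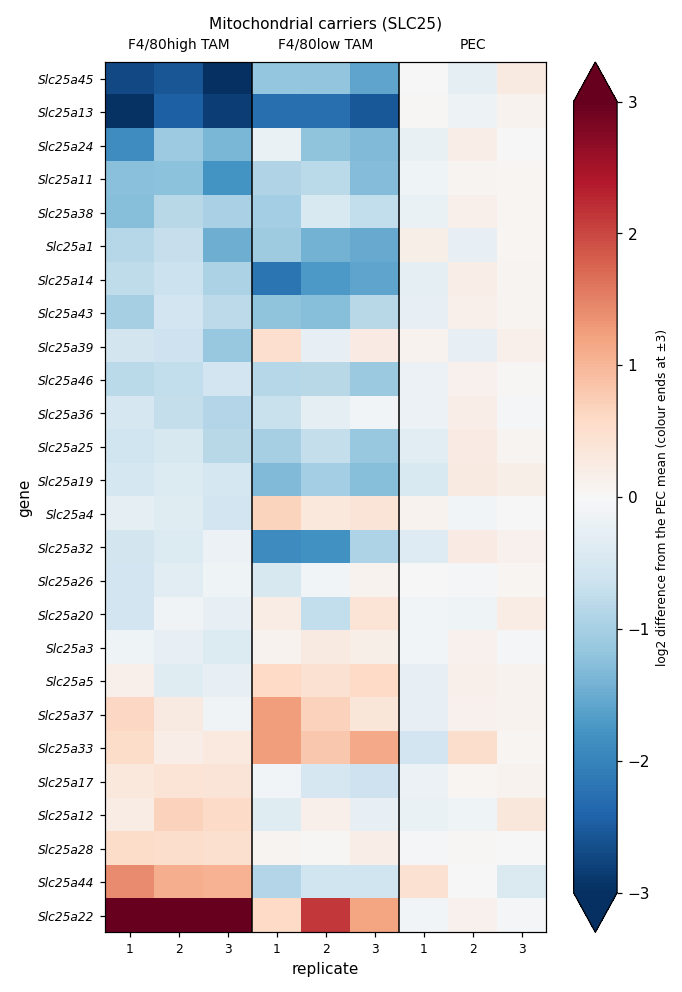
Difference of each array from the mean of the 3 PEC arrays, in log2 units, for the 26 mitochondrial carriers above background on all 9 arrays (rows), with F4/80high TAM, F4/80low TAM and PEC replicates in columns. Slc25a22 at the bottom is the only row past 2 in the F4/80high mean, at 3.96, and Slc25a45 and Slc25a13 at the top lie below -2.

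Among carriers of organic acids, 3 were above background on all arrays. By their brightest probes F4/80high TAMs were lower than PECs and lower than F4/80low TAMs in all 3, and F4/80low TAMs passed against PECs in none, but a second probe of Slc17a5 gave other calls. Of all genes above background on all arrays, 27.5% were lower in F4/80high TAMs than in PECs and 10.9% lower than in F4/80low TAMs. In F4/80low TAMs 48.9% of them passed against PECs. Slc17a9, which loads ATP into vesicles and lysosomes, read -1.50, -1.26 and -1.22 in the F4/80high TAMs, 2.44, 0.91 and 0.13 in the F4/80low TAMs and 0.77, 0.74 and 0.80 in PECs. It fell by 2.10 in F4/80high TAMs against PECs (adjusted p = 0.00484), a call that ended with slide as a block (-2.10, adjusted p = 0.0524), and was 5.62-fold lower than in F4/80low TAMs (log2 fold change -2.49 with SE 0.47, adjusted p = 0.00352; -1.85 without F4/80low replicate 1). Slc16a6, of the monocarboxylate family, gave -1.26 (adjusted p = 0.0162, SE 0.36) in F4/80high TAMs, a call lost without any 1 of PEC replicate 2 and F4/80high replicates 2 and 3 (adjusted p 0.0534 to 0.059) and with slide as a block (-1.04, adjusted p = 0.168), and -1.55 (adjusted p = 0.0102, SE 0.36) between subsets. Slc17a5, which exports sialic acid from lysosomes, gave -0.93 (adjusted p = 0.0301, SE 0.31) in F4/80high TAMs and 0.48 (adjusted p = 0.213, SE 0.31) in F4/80low TAMs by the probe with the CA run shown above, the first lost without any 1 of PEC replicates 1 and 2 and F4/80high replicates 1 and 3 (adjusted p 0.0671 to 0.105). Its second probe gave -1.53 (SE 0.22, adjusted p = 0.000357) and -0.91 (SE 0.22, adjusted p = 0.00746), and between subsets -0.62 (SE 0.22, adjusted p = 0.0562) against -1.41 (adjusted p = 0.00726, SE 0.31) by the first. Slc13a3, a sodium-coupled importer of succinate and other dicarboxylates that also carries itaconate, read 2.99, 2.89 and 2.82 in the F4/80high TAMs, 2.38, 2.43 and 2.35 in the F4/80low TAMs and -4.63, -1.94 and -3.91 in PECs (mm9, chr2:165230796-165230855), above background on all 6 TAM arrays and 1 of 3 PEC arrays. All TAM arrays lay above all PEC arrays, by 6.39 (adjusted p = 1.76e-05, SE 0.55) in F4/80high TAMs and 5.88 (adjusted p = 3.91e-05, SE 0.55) in F4/80low TAMs. Since Slc13a3 met the rule through the TAM subsets and not PECs, a difference from PECs was part of how it was chosen. These adjusted p-values are no separate support. The subsets gave 0.52 (adjusted p = 0.515, SE 0.55), which reached 0.51, adjusted p = 0.00991 with normexp correction. Against PECs normexp correction gave 3.17 and 2.66, the deposited values 3.29 and 2.97, slide as a block 7.53 and 7.01, and leaving out PEC replicate 2 7.17 and 6.65. Slc16a7, a high-affinity pyruvate and lactate carrier, was above background throughout in F4/80low TAMs and PECs and on no F4/80high array. It read -4.07, -2.95 and -3.59 in the F4/80high TAMs, -1.05, -1.51 and -1.31 in the F4/80low TAMs and -2.08, -2.51 and -2.20 in PECs. It was called lower in F4/80high TAMs than in PECs (adjusted p = 0.00429), with no bound above 1 on the fold and 0.02, adjusted p = 0.864 with normexp correction. The value in F4/80low TAMs was 0.97 (adjusted p = 0.0167, SE 0.28), lost with slide as a block (0.79, adjusted p = 0.174) and without PEC replicate 2 (adjusted p 0.0608), and Slc16a7 was at least 1.91-fold lower in F4/80high than in F4/80low TAMs (adjusted p = 0.000427).

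Carriers of vitamins and nucleosides included a large fall, that of Slc46a3. Of 12 above background on all arrays, 1 rose and 3 fell in F4/80high TAMs against PECs (median log2 fold change -0.06). Among them 2 rose and 5 fell in F4/80low TAMs (median -0.45), and 2 were higher and 5 lower in F4/80high than in F4/80low TAMs (median -0.36). In F4/80high TAMs 8.3% of the class rose and 25% fell, beside 23.0% and 27.5% of all genes above background on all arrays. The shares in F4/80low TAMs were 16.7% and 41.7%, beside 18.6% and 30.3%. Between the subsets 16.7% were higher and 41.7% lower, beside 18.9% and 10.9%. Slc46a3, a lysosomal carrier related to the folate transporters, read -1.79, -1.12 and -1.07 in the F4/80high TAMs, -0.24, 1.89 and 1.45 in the F4/80low TAMs and 4.08, 3.39 and 3.80 in PECs (mm9, chr5:148690145-148690204). The groups did not overlap, with F4/80high TAMs lowest and PECs highest. It fell 33.8-fold in F4/80high TAMs (log2 fold change -5.08 with SE 0.49, adjusted p = 3.57e-05) and 6.59-fold in F4/80low TAMs (log2 fold change -2.72 with SE 0.49, adjusted p = 0.00172), and was 5.13-fold lower in F4/80high than in F4/80low TAMs (log2 fold change -2.36 with SE 0.49, adjusted p = 0.00576). Without F4/80low replicate 1 the last pair was -2.09 and -3.00, and normexp correction gave -3.50 in F4/80high TAMs against PECs and -1.16 between subsets. Slc46a1, the proton-coupled folate transporter, read 1.83, 1.42 and 0.83 in the F4/80high TAMs, 3.24, 2.99 and 3.49 in the F4/80low TAMs and 3.39, 3.26 and 3.54 in PECs. It was lower in F4/80high TAMs than in PECs (log2 fold change -2.03 with SE 0.26, adjusted p = 0.00018) and than in F4/80low TAMs (log2 fold change -1.88 with SE 0.26, adjusted p = 0.000713), with -0.16 (adjusted p = 0.634, SE 0.26) in F4/80low TAMs over PECs, and a second probe gave -1.99 (SE 0.26, adjusted p = 0.000218), -1.98 (SE 0.26, adjusted p = 0.00059) and -0.01 (SE 0.26, adjusted p = 0.986). Slc5a6, the sodium-coupled carrier of biotin and pantothenate, fell by 2.19 in F4/80high TAMs (adjusted p = 5.79e-05) and by 1.07 in F4/80low TAMs (adjusted p = 0.00436), or -1.01, adjusted p = 0.0559 with slide as a block and -1.16 in F4/80high TAMs with normexp correction. Slc23a2, the vitamin C importer, read 1.03, 1.05 and 0.56 in the F4/80high TAMs, -1.79, -1.23 and -0.26 in the F4/80low TAMs and 0.71, 0.99 and 1.10 in PECs, and gave -0.05 (adjusted p = 0.913, SE 0.35) in F4/80high TAMs, -2.03 (adjusted p = 0.00135, SE 0.35) in F4/80low TAMs and 1.98 (adjusted p = 0.00253, SE 0.35) between subsets. The call in F4/80low TAMs ended within slide 1 (-1.80, adjusted p = 0.053).

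Slc28a2, a sodium-coupled importer of purine nucleosides, gave 1.18 (adjusted p = 0.0299, SE 0.39) in F4/80high TAMs and -1.27 (adjusted p = 0.0229, SE 0.39) in F4/80low TAMs. It read 2.60, 4.20 and 4.25 in the F4/80high TAMs, 1.27, 1.14 and 1.31 in the F4/80low TAMs and 2.33, 2.46 and 2.73 in PECs. The subsets did not overlap and differed by 2.44 (adjusted p = 0.0015, SE 0.39), but the calls against PECs were lost without any 1 of PEC replicates 1, 2 and 3 and F4/80high replicates 2 and 3 (adjusted p 0.0509 to 0.107) in F4/80high TAMs and without any 1 of PEC replicates 2 and 3 and F4/80low replicate 2 (adjusted p 0.0524 to 0.0761) in F4/80low TAMs. Slc29a1, an equilibrative nucleoside transporter, gave -0.41 (adjusted p = 0.189, SE 0.25) in F4/80high TAMs, or -0.68, adjusted p = 0.0285 without F4/80high replicate 1. Its value was 0.74 (adjusted p = 0.0321, SE 0.25) in F4/80low TAMs and -1.16 (adjusted p = 0.00684, SE 0.25) between subsets, and the call in F4/80low TAMs was lost without any 1 of PEC replicates 1, 2 and 3 and F4/80low replicates 1, 2 and 3 (adjusted p 0.0524 to 0.0855). The thiamine transporter Slc19a2 and the lysosomal nucleoside exporter Slc29a3 passed in no comparison. Slc29a3 gave -0.70 (adjusted p = 0.195, SE 0.43) in F4/80low TAMs, and -1.24, adjusted p = 0.0076 without F4/80low replicate 3. Slc43a3, a purine nucleobase carrier above background on 2 of 3 PEC arrays, read 1.05, 0.85 and 0.79 in the F4/80high TAMs, 3.42, 1.38 and 1.56 in the F4/80low TAMs and -0.82, -0.30 and -2.74 in PECs. It gave 3.41 (adjusted p = 0.00268, SE 0.67) in F4/80low TAMs (2.76 without F4/80low replicate 1, 2.68 without PEC replicate 3 and 2.94, adjusted p = 0.0559 with slide as a block). As it did not meet the rule in PECs, its choice favoured such a difference.

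Metal carriers changed in both directions. Of 18 above background on all arrays, 5 rose and 3 fell in F4/80high TAMs against PECs (median log2 fold change 0.05). Of the same members 4 rose and 6 fell in F4/80low TAMs (median -0.28), and 6 were higher and 3 lower in F4/80high than in F4/80low TAMs (median 0.19). The rises and falls in F4/80high TAMs were 27.8% and 16.7% of the class, beside 23.0% and 27.5% of all such genes. The shares in F4/80low TAMs were 22.2% and 33.3%, beside 18.6% and 30.3%. Between the subsets 33.3% were higher and 16.7% lower, beside 18.9% and 10.9%. With slide as a block, 3 rises and 3 falls passed in F4/80high TAMs, with 4 and 3 in F4/80low. In that setting 34.2% and 29.8% of all genes tested were called either way. Slc39a14, an importer of zinc, manganese and iron induced by inflammation in liver, read 3.91, 4.01 and 4.22 in the F4/80high TAMs, 1.29, 1.56 and 1.01 in the F4/80low TAMs and -0.38, 0.69 and 0.77 in PECs (mm9, chr14:70703394-70703453). All F4/80high arrays lay above all F4/80low arrays and these above all PEC arrays. It rose 12.8-fold in F4/80high TAMs (log2 fold change 3.68 with SE 0.30, adjusted p = 1.40e-05) and was 6.76-fold higher than in F4/80low TAMs (log2 fold change 2.76 with SE 0.30, adjusted p = 0.000224). The difference of F4/80low TAMs from PECs was 0.93 (adjusted p = 0.0293, SE 0.30), a call lost without any 1 of PEC replicate 1 and F4/80low replicates 1 and 2 (adjusted p 0.0527 to 0.0911) and with normexp correction (0.44, adjusted p = 0.0996). Slide as a block gave 4.42 and 1.66 for the TAM subsets in that order. Slc39a4, the zinc importer of the intestine, read 2.55, 1.90 and 2.53 in the F4/80high TAMs, 2.79, 3.17 and 3.21 in the F4/80low TAMs and -0.99, 0.61 and 0.05 in PECs. It rose 5.41-fold in F4/80high TAMs (log2 fold change 2.43 with SE 0.38, adjusted p = 0.000596) and 8.98-fold in F4/80low TAMs (log2 fold change 3.17 with SE 0.38, adjusted p = 0.000163). Slide as a block gave 3.32 and 4.05, and normexp correction 1.61 and 2.17. Slc30a4, which moves zinc out of the cytosol into vesicles, read 3.19, 3.21 and 3.35 in the F4/80high TAMs, 0.75, 0.87 and 1.43 in the F4/80low TAMs and 0.39, 1.69 and 1.35 in PECs. It was higher in F4/80high TAMs than in PECs (log2 fold change 2.11 with SE 0.32, adjusted p = 0.000558) and than in F4/80low TAMs (log2 fold change 2.23 with SE 0.32, adjusted p = 0.000914), with -0.12 (adjusted p = 0.765, SE 0.32) in F4/80low TAMs over PECs and 2.87 in F4/80high TAMs with slide as a block.

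Slc39a13, a zinc carrier of the secretory pathway, read 2.75, 2.99 and 2.74 in the F4/80high TAMs, 3.89, 4.35 and 4.27 in the F4/80low TAMs and 2.23, 2.25 and 2.06 in PECs. It rose by 0.65 (adjusted p = 0.0128, SE 0.18) in F4/80high TAMs and by 1.99 (adjusted p = 3.05e-05, SE 0.18) in F4/80low TAMs, and differed by -1.34 (adjusted p = 0.000568, SE 0.18) between subsets. The rise in F4/80high TAMs was lost with slide as a block (0.60, adjusted p = 0.104) and without any 1 of PEC replicate 3 and F4/80high replicate 2 (adjusted p 0.0516 to 0.0533). Slc39a11, a zinc importer of the Golgi and nucleus, fell by 2.29 and 1.60 in F4/80high TAMs and F4/80low TAMs (adjusted p = 1.46e-05 and 0.000161). Slc41a2, a magnesium carrier, fell by 2.29 and 2.12 (adjusted p = 0.00133 and 0.0024), which slide as a block left at -1.58, adjusted p = 0.0627 in F4/80low TAMs and the fit within slide 1 at -1.76, adjusted p = 0.0633 in F4/80high TAMs. Slc39a8, a zinc and manganese importer induced by inflammatory signals in monocytes, was above background throughout in F4/80high TAMs and PECs and on 1 of 3 F4/80low arrays. It gave 1.03 (adjusted p = 0.056, SE 0.40) in F4/80high TAMs, -1.55 (adjusted p = 0.0107, SE 0.40) in F4/80low TAMs and 2.58 (adjusted p = 0.00136, SE 0.40) between subsets, and normexp correction turned the first into 0.49, adjusted p = 0.019, the second into -0.23, adjusted p = 0.213 and the third into 0.72. Among the copper carriers, the importer Slc31a1 gave 0.28 (adjusted p = 0.326, SE 0.23) in F4/80high TAMs and 0.96 (adjusted p = 0.00687, SE 0.23) in F4/80low TAMs. The probes of its relative Slc31a2 differed, with 0.36 (adjusted p = 0.199, SE 0.22) and -0.40 (adjusted p = 0.157, SE 0.22) by the brighter and 1.15 (SE 0.18, adjusted p = 0.000617) and 0.72 (SE 0.18, adjusted p = 0.00897) by the dimmer. Slc30a1, the zinc exporter of the plasma membrane, passed in no comparison (-0.33, 0.05 and -0.39).

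Carriers of sodium, potassium, protons, chloride, bicarbonate, sulfate and phosphate changed in either direction in both TAM subsets. Of 16 above background on all arrays, 2 rose and 6 fell in F4/80high TAMs against PECs (median log2 fold change 0.09). Of these 2 rose and 3 fell in F4/80low TAMs (median -0.08), and 3 were higher and 4 lower in F4/80high than in F4/80low TAMs (median -0.16). In F4/80high TAMs 12.5% of the class rose and 37.5% fell, beside 23.0% and 27.5% of all genes above background on all arrays. The shares in F4/80low TAMs were 12.5% and 18.75%, beside 18.6% and 30.3%. Between the subsets 18.75% were higher and 25% lower, beside 18.9% and 10.9%. Slc4a7, a sodium-bicarbonate importer that helps acidify phagosomes in human macrophages, read 3.58, 3.75 and 3.99 in the F4/80high TAMs, 1.93, 2.18 and 1.79 in the F4/80low TAMs and 1.20, 1.36 and 1.48 in PECs. It rose 5.36-fold in F4/80high TAMs (log2 fold change 2.42 with SE 0.18, adjusted p = 8.09e-06) and was higher than in F4/80low TAMs (log2 fold change 1.81 with SE 0.18, adjusted p = 0.000151). Its brightest probe gave 0.61 (adjusted p = 0.0191, SE 0.18) in F4/80low TAMs, lost without any 1 of PEC replicates 1 and 2 and F4/80low replicate 2 (adjusted p 0.0501 to 0.0629) and with slide as a block (0.76, adjusted p = 0.0533), whereas the second probe, shown above, gave 3.29 (SE 0.27, adjusted p = 1.20e-05) in F4/80high TAMs and 2.21 (SE 0.27, adjusted p = 0.000173) in F4/80low TAMs. Slc26a11, a sulfate and chloride carrier found in lysosomes, read -1.46, -1.87 and -1.85 in the F4/80high TAMs, 0.48, 1.40 and 2.00 in the F4/80low TAMs and 1.73, 0.78 and 1.18 in PECs. The F4/80high arrays lay below all others, at -2.96 (adjusted p = 0.000194, SE 0.38) against PECs and -3.02 (adjusted p = 0.00045, SE 0.38) against F4/80low TAMs, with 0.06 (adjusted p = 0.898, SE 0.38) in F4/80low TAMs over PECs. Normexp correction gave -1.47 and -1.41 for the first pair. Slc20a1, a sodium-phosphate importer, had the same pattern, at 2.30, 2.20 and 2.10 in the F4/80high TAMs, 3.85, 3.98 and 4.37 in the F4/80low TAMs and 3.19, 4.68 and 4.30 in PECs. It was lower in F4/80high TAMs than in PECs (log2 fold change -1.86 with SE 0.34, adjusted p = 0.00163; -0.99 with slide as a block) and than in F4/80low TAMs (log2 fold change -1.87 with SE 0.34, adjusted p = 0.003). Its value in F4/80low TAMs was 0.01 (adjusted p = 0.986, SE 0.34), which slide as a block turned into 0.87, adjusted p = 0.0446.

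Slc12a2, the sodium-potassium-chloride importer, passed in no comparison without a replicate block. Between subsets it gave 1.03 (adjusted p = 0.308, SE 0.71), or adjusted p = 0.0339 with the replicate number as a block on the TAM arrays. In F4/80low TAMs, where 1 of 3 arrays was above background, it gave -1.74 (adjusted p = 0.0665, SE 0.71), or -2.49, adjusted p = 0.0112 without F4/80low replicate 3 and -0.47, adjusted p = 0.0443 with normexp correction. The potassium-chloride cotransporter Slc12a4 was lower in F4/80low TAMs than in either other group. It read 4.14, 4.59 and 4.30 in the F4/80high TAMs, 2.56, 2.81 and 2.55 in the F4/80low TAMs and 4.19, 4.45 and 4.39 in PECs, with 0.00 (adjusted p = 0.995, SE 0.18) in F4/80high TAMs, -1.70 (adjusted p = 7.75e-05, SE 0.18) in F4/80low TAMs and 1.70 (adjusted p = 0.000178, SE 0.18) between subsets. Slc12a9, a relative with no established substrate, above background on 2 of 3 F4/80low arrays, read 1.77, 2.11 and 1.21 in the F4/80high TAMs, -1.96, -1.32 and -0.82 in the F4/80low TAMs and 0.10, 0.16 and 0.36 in PECs. It was higher in F4/80high TAMs (log2 fold change 1.49 with SE 0.31, adjusted p = 0.00343) and lower in F4/80low TAMs (log2 fold change -1.57 with SE 0.31, adjusted p = 0.00292) than in PECs, and differed by 3.06 (adjusted p = 0.000164, SE 0.31) between subsets. Normexp correction gave -0.61 in F4/80low TAMs and 1.62 between subsets, and the fit within slide 1 ended the call in F4/80low TAMs (-1.46, adjusted p = 0.0726). Slc4a2, a chloride-bicarbonate exchanger, gave 0.73 (adjusted p = 0.0133, SE 0.20) in F4/80high TAMs and 1.50 (adjusted p = 0.000331, SE 0.20) in F4/80low TAMs. The first was lost with slide as a block (0.67, adjusted p = 0.114) and without F4/80high replicate 2 (adjusted p 0.0519).

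Among carriers of lipids and organic ions, Slc10a1 with its repeat was the 1 rise in F4/80high TAMs of those above background on all arrays. Of these 7, 1 rose and 4 fell in F4/80high TAMs against PECs (median log2 fold change -0.93). Among them 1 rose and 3 fell in F4/80low TAMs (median -0.26), and 0 were higher and 3 lower in F4/80high than in F4/80low TAMs (median -0.38). In F4/80high TAMs 14.3% of the class rose and 57.1% fell, beside 23.0% and 27.5% of all genes above background on all arrays. The shares in F4/80low TAMs were 14.3% and 42.9%, beside 18.6% and 30.3%. Between the subsets 0% were higher and 42.9% lower, beside 18.9% and 10.9%. Slc27a1, a fatty acid transport protein with acyl-CoA synthetase activity, read 2.29, 2.40 and 1.99 in the F4/80high TAMs, 2.87, 3.24 and 3.20 in the F4/80low TAMs and 4.10, 3.98 and 4.10 in PECs. The groups did not overlap, and the falls were -1.84 (adjusted p = 3.52e-05, SE 0.18) in F4/80high TAMs and -0.96 (adjusted p = 0.002, SE 0.18) in F4/80low TAMs, with -0.88 (adjusted p = 0.00483, SE 0.18) between subsets. Its relative Slc27a4 gave 0.08 (adjusted p = 0.785, SE 0.23) and 0.46 (adjusted p = 0.115, SE 0.23), the second 0.73, adjusted p = 0.0285 with median centring and 0.67, adjusted p = 0.0252 without PEC replicate 1. Slc22a18, an organic cation carrier, fell by 1.92 in F4/80high TAMs (adjusted p = 0.000229; -1.05 with normexp correction) and by 0.98 in F4/80low TAMs (adjusted p = 0.0104; -0.74, adjusted p = 0.149 with slide as a block). Slc22a4, the ergothioneine transporter, read 0.43, 0.84 and 1.52 in the F4/80high TAMs, 1.56, 2.53 and 2.31 in the F4/80low TAMs and 1.90, 2.71 and 2.57 in PECs. It gave -1.46 (adjusted p = 0.00736, SE 0.36) in F4/80high TAMs, -0.97, adjusted p = 0.151 with slide as a block, and -0.26 (adjusted p = 0.56, SE 0.36) in F4/80low TAMs. Between subsets it gave -1.20 (adjusted p = 0.0293, SE 0.36), lost without any 1 of F4/80high replicates 1 and 2 and F4/80low replicates 2 and 3 (adjusted p 0.0786 to 0.101).

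The rule also admits genes named after a carrier whose products carry nothing, of which 3 were above background on all arrays. Slc9a3r1, a scaffold protein that binds the tails of membrane carriers, fell by 1.21 in F4/80high TAMs (adjusted p = 0.00243) and by 1.53 in F4/80low TAMs (adjusted p = 0.000755). Slc7a6os gave 0.65 (adjusted p = 0.00874, SE 0.16) in F4/80high TAMs, or 0.75, adjusted p = 0.0642 within slide 1, and 0.30 (adjusted p = 0.149, SE 0.16) in F4/80low TAMs, or 0.57, adjusted p = 0.0176 with median centring. Slc4a1ap gave -0.66 (adjusted p = 0.00936, SE 0.17) in F4/80low TAMs, lost with slide as a block (-0.52, adjusted p = 0.123), median centring (-0.39) and quantile normalization (-0.43).

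Members above background throughout 1 group and on no array of another are given as bounds, in which the dim group is set no lower than the lowest signal called well above background on its arrays. Each passed the test unless stated, but members that met the rule through their bright group alone were bound to differ. Here and between the subsets, the adjusted p-values of such members are no separate support. In F4/80high TAMs against PECs the serotonin transporter Slc6a4 was at least 10.2-fold higher (adjusted p = 6.04e-05), the glutamate transporter Slc1a2 of astrocytes at least 3.62-fold higher (adjusted p = 2.05e-05) and the chloride carrier Slc26a9 at least 3.28-fold higher (adjusted p = 1.93e-05). The sodium-proton exchanger Slc9a4 was at least 3.23-fold lower (adjusted p = 0.00028), the vesicular monoamine transporter Slc18a1 at least 2.81-fold lower (adjusted p = 0.00348) and Slc7a4 at least 2.59-fold lower (adjusted p = 0.000415). With normexp correction the fall of Slc18a1 did not pass (-0.45, adjusted p = 0.15). The log2 fold changes of the others with it were 1.68 for Slc6a4, 0.86 for Slc1a2, 0.84 for Slc26a9, -0.62 for Slc9a4 and -0.47 for Slc7a4. These are smaller than the bounds, which hold for the main background correction only. The neuronal cotransporter Slc12a5, set against PECs, was in F4/80low TAMs at least 4.09-fold higher (adjusted p = 0.00189) and the calcium exchanger Slc24a3 at least 3.77-fold higher (adjusted p = 0.000566). Slc9a4 was at least 3.04-fold lower there (adjusted p = 0.000154), Slc24a6, the mitochondrial sodium-calcium exchanger now named Slc8b1, at least 2.75-fold lower (adjusted p = 0.00134) and Slc7a4 at least 2.43-fold lower (adjusted p = 0.00274; with slide as a block -1.79, adjusted p = 0.0692). Slc14a2, a urea transporter, was at least 7.27-fold higher in F4/80low TAMs by 1 probe (adjusted p = 0.00139), and its other probe gave -1.78 (SE 0.40, adjusted p = 0.00566), so its direction is not settled.

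Between the subsets, Slc18a1 was at least 14.9-fold lower in F4/80high than in F4/80low TAMs (adjusted p = 0.000152). Its log2 fold change was -1.83 with normexp correction and -2.25 in the deposited values, smaller than the bound. It read -3.66, -2.94 and -2.14 in the F4/80high TAMs, 1.16, 1.46 and 2.44 in the F4/80low TAMs and -0.12, -0.80 and -1.24 in PECs, with 2.41 (adjusted p = 0.0024, SE 0.46) in F4/80low TAMs over PECs, or 1.81, adjusted p = 0.063 with slide as a block. The organic ion carrier Slc22a15 was at least 3.99-fold lower (adjusted p = 0.00248) and the betaine transporter Slc6a12 at least 3.71-fold lower (adjusted p = 0.00233). Slc26a9 was at least 2.45-fold higher (adjusted p = 0.000147). Normexp correction gave log2 fold changes of -0.69 for Slc22a15 and 0.52 for Slc26a9, also smaller than the bounds. Slc6a13, a GABA and taurine transporter above background throughout in F4/80low TAMs, on 1 of 3 PEC arrays and on no F4/80high array, was at least 2.53-fold lower in F4/80high than in F4/80low TAMs (adjusted p = 0.000464). Against PECs it gave -1.40 (adjusted p = 0.0178, SE 0.41) in F4/80high TAMs and 1.85 (adjusted p = 0.00506, SE 0.41) in F4/80low TAMs, the first lost with normexp correction (-0.07, adjusted p = 0.749), with slide as a block (-0.82, adjusted p = 0.279) and without any 1 of PEC replicates 2 and 3 and F4/80high replicate 2 (adjusted p 0.0573 to 0.0639).

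Carriers that bear no Slc symbol were called in both directions. Of 33 genes listed, 27 are on the array and 25 were tested. Not all of them are carriers: the counts include Bsg and Emb, chaperones of monocarboxylate carriers, and Unc93b1. Against PECs 7 rose and 13 fell in F4/80high TAMs, beside 25.1% and 28.0% of all 16440 genes (53.1% either way), and 6 rose and 13 fell in F4/80low TAMs, beside 22.8% and 29.2% (51.9% either way). The falls in F4/80low TAMs numbered 7 with slide as a block, 6 within slide 1 and 8 with median centring, each beside 6 rises. In those settings 29.8%, 25.1% and 53.1% of all genes tested were called either way. Between the subsets 6 were higher and 6 lower in F4/80high than in F4/80low TAMs, with 32.6% called. Slco3a1, an organic anion carrier, read 4.30, 4.62 and 4.73 in the F4/80high TAMs, 2.28, 2.68 and 2.16 in the F4/80low TAMs and -1.52, -0.79 and -0.45 in PECs, and rose by 5.47 (adjusted p = 1.15e-06, SE 0.28) in F4/80high TAMs and 3.29 (adjusted p = 2.54e-05, SE 0.28) in F4/80low TAMs. Slco4a1, a relative that carries thyroid hormone, gave 1.75 (adjusted p = 0.00269, SE 0.35) and 4.46 (adjusted p = 1.59e-05, SE 0.35). Spns2, the exporter of sphingosine 1-phosphate, read -2.44, -3.02 and -2.62 in the F4/80high TAMs, 2.74, 2.89 and 2.34 in the F4/80low TAMs and -3.98, -4.57 and -4.62 in PECs and was above background on the F4/80low arrays alone. The phosphate exporter Xpr1 read 2.15, 1.31 and 1.77 in the F4/80high TAMs, 5.58, 5.39 and 5.36 in the F4/80low TAMs and 3.68, 3.69 and 3.66 in PECs, lower in F4/80high TAMs (log2 fold change -1.93 with SE 0.21, adjusted p = 7.85e-05) and higher in F4/80low TAMs (log2 fold change 1.77 with SE 0.21, adjusted p = 0.000181) than in PECs. Unc93b1, which escorts Toll-like receptors to endosomes, gave 0.62 (adjusted p = 0.0132, SE 0.17) in F4/80high TAMs and -1.84 (adjusted p = 3.67e-05, SE 0.17) in F4/80low TAMs. Tmem165, a manganese and calcium carrier of the Golgi needed for glycosylation, gave -2.10 (adjusted p = 2.54e-05, SE 0.19) and -2.38 (adjusted p = 1.73e-05, SE 0.19).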

How the data were processed

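RNA of 9 samples was labelled with Cy3 and read on single-colour Agilent arrays. Per the file headers, the deposited intensity is the processed signal of Agilent Feature Extraction 10.5.1.1, after its background correction; probe coordinates are mm9. The value table of the series, also deposited, gives log2 values of 9703 probes. Its normalization is not given in the sources used here, and served as an alternative. Between 36.1% and 38.3% of 59305 non-control spots per array were well above background and 0 were saturated; outlier spots were left out. Signals were put on the log2 scale minus each array's 75th percentile. A probe was kept when the flag was set throughout at least 1 group, the brightest standing for its gene name in the file; spots of a probe were averaged. Genes were tested with limma 3.58.1 (lmFit, eBayes) in R 4.3.3, all 9 arrays in 1 fit, two-sided, with Benjamini-Hochberg adjustment within each comparison over 16440 genes at 0.05; the fit was tested on simulated data. The median SE of a log2 fold change was 0.236, and the number of arrays limits the precision.

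Members, classes and lists were chosen with earlier results of these data known. Members named are, per comparison, the 5 largest rises and falls and the 3 largest bounds each way, members called in opposite directions, 3 per class with the widest range and a fixed list. A result that the rule would name is not reported here. Slc13a3, Slc2a8, Slc23a2, Slc39a11, Slc5a3, Slc25a11, Slc25a14, Slc46a1, Slc35c1, Slc35a1, Slc45a3, Slc10a1, Slc12a4, Slc4a2, Slc38a9, members named only for a repeat and the carriers without an Slc symbol were picked after their values were seen. Residuals of same-numbered TAM arrays correlated at 0.23, 0.17 and 0.13 across genes, and those of F4/80high and F4/80low arrays of unlike number at -0.17 to 0.02. Same-numbered TAM arrays were treated as pairs in the replicate block only, not in the main fit. Residuals of PEC arrays and same-numbered TAM arrays correlated at 0.04, -0.10 and 0.01 with F4/80high, and at 0.09, -0.03 and 0.02 with F4/80low. PEC and TAM arrays of unlike number reached 0.13, so the labels alone do not settle the pairing. Alternatives were another background correction (normexp, offset 50), quantile normalization, median centring, no filter or a stricter filter on dim probes, the mean of a gene's probes, names through accessions, only the compared groups, slide, a replicate block, the deposited table and leaving out each array.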

Additional observations from a re-analysis of the deposited data

Results flagged for a closer look

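Members were flagged where the TAM subsets were called on opposite sides of PECs and the difference between the subsets passed the limma test. This choice gave 7 members. Since opposite calls go with a wide difference between the subsets, passing that test is no separate support. Slc7a8, the neutral amino acid light chain, differed by 3.06 (F4/80high minus F4/80low, log2; adjusted p = 0.000362), and the potassium-chloride family member Slc12a9 by 3.06 (adjusted p = 0.000164). The nucleoside importer Slc28a2 differed by 2.44 (adjusted p = 0.0015) and the branched-chain amino acid carrier Slc25a44 by 1.88 (adjusted p = 0.000474); these 4 were higher in F4/80high than in F4/80low TAMs. The other 3 were lower in F4/80high and on none of its arrays above background, so that the fitted differences depend on signals not above background: Slc18a1 at -4.60 (adjusted p = 0.000152), Slc6a13 at -3.25 (adjusted p = 0.000464) and Slc16a7 at -2.25 (adjusted p = 0.000427). In all 7 the 3 F4/80high arrays and the 3 F4/80low arrays did not overlap, which the choice of members made likely. In each, however, at least 1 of the calls against PECs was lost under another setting. A slide block ended both for Slc7a8 (1.52, adjusted p = 0.0666 in F4/80high and -1.54, adjusted p = 0.0695 in F4/80low TAMs), that of Slc25a44 in F4/80high TAMs (0.73, adjusted p = 0.0693) and that of Slc18a1 in F4/80low TAMs (1.81, adjusted p = 0.063), and the fit within slide 1 that of Slc12a9 in F4/80low TAMs (-1.46, adjusted p = 0.0726). Normexp correction ended those of Slc16a7 (0.02, adjusted p = 0.864), Slc6a13 (-0.07, adjusted p = 0.749) and Slc18a1 (-0.45, adjusted p = 0.15) in F4/80high TAMs. Leaving out single arrays ended both calls of Slc28a2 and that of Slc25a44 in F4/80low TAMs, where a second Slc25a44 probe gave -0.14 (SE 0.27, adjusted p = 0.691).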

How the results depend on the processing

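Comparisons with PECs rest on PEC arrays of which 2 of 3 lie on another slide. With a slide block the share of all genes called fell as well, from 53.1% to 34.2% in F4/80high TAMs and from 51.9% to 29.8% in F4/80low TAMs. Members called in F4/80high TAMs against PECs numbered 103, then 65 with a slide block and 54 on slide 1 alone; for those above background on all 9 arrays the numbers were 74, 47 and 39, and for carriers without an Slc symbol 20, with 13 within slide 1. In F4/80low TAMs against PECs they numbered 115, 69 and 55, then 78, 47 and 38, then 19 with 12 within slide 1. Leaving out any 1 array left 91 to 106, 92 to 112 and, between subsets, 61 to 79 members called, 62 to 75, 61 to 75 and 43 to 60 of those on all 9 arrays, and 18 to 21, 14 to 20 and 9 to 12 carriers without an Slc symbol. The block on replicate numbers over all 9 arrays, PECs included, called 77 members between subsets against 79 without it, 76 of them shared. With TAM arrays alone 74 were called, of which 69 were shared. Of members above background on all 9 arrays, 56 were called against 58 without the block (53 with TAM arrays alone). Neither block moved a count by over 1.5 times. Of the named members, 2 values turned round: Slc16a7 in F4/80high TAMs against PECs was 0.0238 with normexp correction (adjusted p = 0.864), and Slc45a3 between subsets was -1.14 with the mean of its probes (adjusted p = 0.00124). The share of higher against lower calls moved by over 10 points with median centring in F4/80low TAMs (52 higher and 58 lower members). For members on all 9 arrays it did so there too (30 and 43, against 22 and 56). Between the subsets quantile normalization did the same to them (20 and 39, against 27 and 31). Carriers without an Slc symbol moved as far in F4/80low TAMs in several settings (6 and 6 within slide 1, against 6 and 13). Of 640 class medians recomputed, 46 moved by more than the spread between replicates, 14 of them in the deposited table and 10 with median centring; the cause was not tested. Signal over background limits dim members, whose folds depend on the background correction, and 3 arrays a group limit all calls.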
